A study of Mus musculus with 4 samples.

Results

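The genes described here are 10 genes of reproductive tract epithelium, read from the RNA-seq table of gonadal white adipose tissue (gWAT) of female mice, which lists 17335 genes. They are Ltf, Ovgp1 and Wfdc2, whose proteins are secreted, the transcription factor Pax8, the splicing factor Esrp1, the adhesion genes Epcam and Cdh1, the tight junction genes Cldn3 and Cldn4, and the surface mucin Muc1. They were chosen from measured values of the same 2 libraries, as a check for tissue carried over at dissection, after low Ltf and Ovgp1 levels had been seen in one library. All 10 symbols are in the table, and 8 of them reached 0.1 FPKM in at least 1 library, the level from which a gene was tested against the threshold below. FPKM are fragments scaled to transcript length and to the size of the library, so levels of different genes can be compared per length.

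One library was made from fl/fl mice, which carry floxed Dnmt1 alleles without Cre, and the other from AD1KO mice, their littermates in which adiponectin-Cre, active in adipocytes, deletes floxed Dnmt1 sequence. Cre in this cross is driven in fat cells, so other cells of the pad keep the floxed gene. Both groups were female and were fed a high-fat diet (HFD, 60% of calories from fat) for 18 weeks, and their age is not given in the sources used here. Equal amounts of RNA from 4 animals a group were pooled into 1 library a group, so there are no replicates, the spread between animals is unknown, and each difference below compares 2 libraries with no test. Estimated depth was 17620000 reads in fl/fl and 17420000 in AD1KO. Dnmt1 had a level of 6.99 FPKM in fl/fl against 3.33 in AD1KO, and Esr1, the estrogen receptor gene the study is about, was at 4.82 and 8.44 FPKM. Fabp4 and Adipoq, which mark fat cells, were at 11151 and 1911 FPKM in fl/fl and at 15920 and 3318 in AD1KO.

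In female mice the gonadal fat pad runs along the ovary, oviduct and uterine horn. Oviduct and uterus are lined by a single layer of epithelium that develops from the Müllerian duct. That epithelium secretes proteins into the lumen, and its cells are held together by E-cadherin junctions and sealed by claudins in tight junctions. Adipocytes, by contrast, are mesenchymal cells without such seals, and the mesothelium that covers visceral fat has epithelial keratins of its own. Ltf and Ovgp1 are known as products of estrogen-stimulated uterus and oviduct. Other members have further sources, since neutrophils store lactoferrin in their granules and some dendritic cells of epithelia carry Epcam and E-cadherin.

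Of the 8 tested members, the secreted genes and Pax8 had the lowest ratios of AD1KO over fl/fl. The counting intervals of Wfdc2 and Pax8 overlap those of Cdh1, Muc1 and Cldn3, so their order is not settled. Ltf was 25.5-fold, Ovgp1 20.6-fold and Wfdc2 9.33-fold lower, and Pax8 is listed at 0 in AD1KO. Cdh1 was 2.88-fold, Muc1 2.67-fold and Cldn3 1.97-fold lower, though the counting interval of Cldn3 held a log2 ratio of 0. Epcam, at 0.78 and 0.62 FPKM, differed within its counting error, and Cldn4 and Esrp1 were too low to compare. In bulk tissue, fewer cells of a type and less RNA per cell cannot be told apart. Ratios below are log2 values of AD1KO over fl/fl, each level with 0.01 FPKM added. That shrinks the ratios of low genes with reads in both libraries, while the ratio of a gene listed at 0 depends on the added value. The study's threshold of 0.5 in either direction marks a gene as lower or higher. Of the 8 tested genes, 7 were lower (Epcam was not) and 0 were higher. Over all 15839 tested genes 19.1% were lower and 14.3% higher, and because the members were chosen on this contrast nothing is read from their count. For 4 of the 8 (Ltf, Ovgp1, Pax8 and Wfdc2) the whole 95% counting interval lay at or below -0.5, as it did for 8.25% of tested genes. The median log2 ratio of the 8 was -2.30, beside -0.04 over all tested genes. It was -1.64 with Pax8 set to the bound that a floor of 3 expected reads in AD1KO gives.

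**Figure D1:**
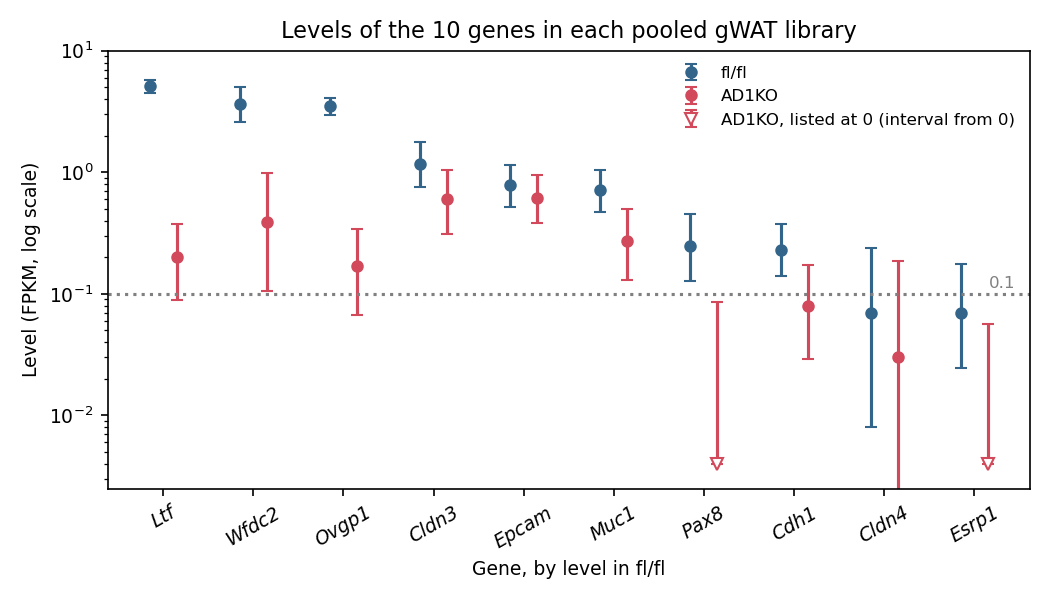
Level of each gene in the fl/fl library (blue) and the AD1KO library (red), in FPKM on a log scale, with exact 95% Poisson intervals for counting error on the estimated reads; open triangles are genes listed at 0, drawn at the foot of the axis with the interval from 0, and the lower end for Cldn4 in AD1KO lies under the axis. Ltf, Wfdc2 and Ovgp1 lie between 3.51 and 5.09 FPKM in fl/fl and between 0.17 and 0.39 in AD1KO, while for the other genes except Pax8 the intervals of both libraries overlap.

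The members are low genes in this tissue. In fl/fl, 4 of the 10 reached 1 FPKM (Ltf, Wfdc2, Ovgp1 and Cldn3), and in AD1KO none of them did. Each was below the median tested gene, with 5.58 FPKM in fl/fl and 5.21 FPKM in AD1KO. By level per length in fl/fl the order was Ltf, Wfdc2, Ovgp1, Cldn3, Epcam, Muc1, Pax8 and Cdh1, with Cldn4 and Esrp1 equal last at 0.07 FPKM. Counting intervals of neighbours in that order overlapped except between Ovgp1 and Cldn3 and between Muc1 and Pax8. In AD1KO the order was led by Epcam at 0.62 and Cldn3 at 0.60 FPKM, and the intervals of all neighbours overlapped. Ltf was 6.53 times the level of Epcam in fl/fl and 0.323 times its level in AD1KO, and Ovgp1 and Wfdc2 were likewise above Epcam in fl/fl and below it in AD1KO. Summed over the 10 genes there were 537 reads in fl/fl and 70 in AD1KO. Ltf and Ovgp1 gave 71.7% of these reads in fl/fl and 22.9% in AD1KO.

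Sequences just before the transcription start are shown for Ltf and Ovgp1, which differed most among members with reads in both libraries, and for Epcam, which differed least. They are the 250 bases before the start in RefSeq, build GRCm38.p6, on the gene's own strand. Capitals mark AGGTCA or its reverse complement TGACCT, the short element to which estrogen receptors and many other nuclear receptors can bind.
Ltf, chr9:111019042-111019291, plus strand: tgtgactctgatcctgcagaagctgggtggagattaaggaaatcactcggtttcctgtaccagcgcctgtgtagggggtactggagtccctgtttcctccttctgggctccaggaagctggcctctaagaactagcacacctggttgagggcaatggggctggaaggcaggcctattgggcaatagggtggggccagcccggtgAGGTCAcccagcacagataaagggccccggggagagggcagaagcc
Ovgp1, chr3:105973552-105973801, plus strand: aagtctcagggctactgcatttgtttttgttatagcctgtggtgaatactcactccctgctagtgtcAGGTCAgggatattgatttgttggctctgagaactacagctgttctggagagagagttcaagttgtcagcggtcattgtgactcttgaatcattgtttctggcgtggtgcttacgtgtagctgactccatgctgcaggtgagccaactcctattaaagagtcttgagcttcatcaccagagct
Epcam, chr17:87635729-87635978, plus strand: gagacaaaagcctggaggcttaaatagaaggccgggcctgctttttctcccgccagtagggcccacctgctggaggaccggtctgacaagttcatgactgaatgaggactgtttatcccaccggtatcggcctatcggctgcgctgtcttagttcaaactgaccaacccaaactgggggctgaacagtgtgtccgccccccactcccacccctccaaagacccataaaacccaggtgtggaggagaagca
Such a match stood in the 250 bases of Ltf, Ovgp1 and Cldn4, which is 3 of the 8 members with an entry (Cdh1 and Esrp1 had none), and in 14.0% of the 32851 windows of all genes. With the 50 bases after the start included, Wfdc2 had one too, giving 4 of 8 members beside 16.3% of all windows. A match is a run of letters and not a site that was shown to be bound. CpG counts in the 300 bases were 4 for Ltf and 3 for Ovgp1, at or just above the lower quartile of all windows, which was 3, and below their median of 7. Pax8 had 7 and Muc1 had 6, near that median. Wfdc2 had 16, Epcam 11, and Cldn3 and Cldn4 had 9 each, all below the upper quartile of 20. Among the 4 genes whose whole interval lay at or below -0.5, the counts ran from 3 (Ovgp1) to 16 (Wfdc2).

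Ltf encodes lactoferrin, an iron-binding protein of mucosal secretions and of neutrophil granules. The gene (17002) lies on chromosome 9 of mm9, 110921796 to 110945270, plus strand, and no annotated gene overlaps it. Its level was 5.09 FPKM in fl/fl, 236 reads, and 0.20 FPKM in AD1KO, 9 reads. That put it above 48.0% of tested genes in fl/fl and above 8.07% of them in AD1KO. The log2 ratio was -4.60 (95% counting interval -5.84 to -3.75), the rank of 95 from the most negative of all tested genes. Ltf gave the largest loss of level among the 10, 4.89 FPKM.

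Ovgp1 encodes oviductin, the glycoprotein that oviduct secretory cells coat the egg with. The gene (12659) lies on chromosome 3, 105776629 to 105790341, plus strand. Its span overlaps that of Wdr77 on the same strand, a coding gene at 9.21 FPKM in fl/fl against 8.10 in AD1KO, so reads of the overlap may be given to either gene, although no stretch of 50 bases was shared by their coding transcripts. Ovgp1 was at 3.51 FPKM in fl/fl, 149 reads, and 0.17 FPKM in AD1KO, 7 reads. The log2 ratio was -4.29 (interval -5.73 to -3.32), rank 130 from the most negative. Ovgp1 stood at 0.690 of the level of Ltf in fl/fl and at 0.85 in AD1KO, and the intervals of their log2 ratios overlap over most of their length.

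Wfdc2 encodes a small secreted whey acidic protein known as HE4, made by epididymal, oviductal and airway epithelium. The gene (67701) lies on chromosome 2, 164387913 to 164394010, plus strand. Its level was 3.64 FPKM in fl/fl against 0.39 in AD1KO. Because its transcript is short, 708 bases, these levels rest on only 38 and 4 reads, and 1 read is worth 0.0959 FPKM in fl/fl. The log2 ratio was -3.19 (interval -5.18 to -1.76), and this interval overlaps those of Ltf and Ovgp1.

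Pax8 encodes a paired box transcription factor of the Müllerian epithelium, kidney and thyroid, and is the only regulator of that lineage among the 10. The gene (18510) lies on chromosome 2, 24276071 to 24331119, minus strand, and the noncoding entries AL732528.1 and Gm13415 overlap it. It had 11 reads in fl/fl, 0.25 FPKM, while AD1KO has it at 0. With the listing at 0 set against a floor of 3 expected reads, Pax8 was 3.63-fold lower in AD1KO, a log2 ratio of -1.86. That value leaves out the counting error of the 11 reads in fl/fl. With this error included, the upper end of the counting interval was a log2 ratio of -1.31. The fitted ratio of -4.70 depends on the added 0.01 FPKM.

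Esrp1 encodes a splicing factor that sets epithelial exon choices. The gene (207920) lies on chromosome 4, 11259080 to 11313930, minus strand. With 5 reads in fl/fl, 0.07 FPKM, and a listing of 0 in AD1KO, it was under the minimum of 0.1 FPKM. Its interval ran up to a log2 ratio of 0.14, and this depth could not show a difference.

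Epcam encodes an adhesion molecule on the lateral membrane of most simple epithelia. The gene (17075) lies on chromosome 17, 88035319 to 88050446, plus strand. Its level was 0.78 FPKM in fl/fl, 27 reads, and 0.62 in AD1KO, 21 reads. The log2 ratio of -0.33 fell short of the threshold, and its interval, -1.24 to 0.53, holds 0 and lies wholly above those of Ltf, Ovgp1, Wfdc2 and Pax8. Epcam was thus the highest of the 10 in AD1KO and the fifth in fl/fl.

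Cdh1 encodes E-cadherin, the core of the epithelial adherens junction. The gene (12550) lies on chromosome 8, 109127251 to 109194146, plus strand, and its long transcript makes 1 read worth 0.0131 FPKM in fl/fl. It was at 0.23 FPKM in fl/fl, 18 reads, and 0.08 in AD1KO, 6 reads. The log2 ratio was -1.42, with an interval from -3.19 to -0.17 that lies below 0 but crosses the threshold.

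Cldn3 and Cldn4 encode claudins, the strands that seal tight junctions, and their genes stand 39280 bases apart on chromosome 5. Cldn3 (12739; 135462084 to 135463342, plus strand) was at 1.18 FPKM in fl/fl, 24 reads, and 0.60 in AD1KO, 12 reads. Its log2 ratio was -0.96 and the interval, -2.12 to 0.07, holds 0. Cldn4 (12740; 135420996 to 135422804, minus strand) had 2 reads in fl/fl and 1 in AD1KO, too few for a ratio, and was under the minimum level.

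Muc1 encodes a transmembrane mucin of the luminal surface. The gene (17829) lies on chromosome 3, 89032979 to 89037303, plus strand. It was at 0.72 FPKM in fl/fl, 27 reads, the same number as Epcam, and at 0.27 in AD1KO, 10 reads. The log2 ratio was -1.38 (interval -2.63 to -0.32). In AD1KO it kept fewer reads than Epcam, but the intervals of their ratios overlap.

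**Figure D2:**
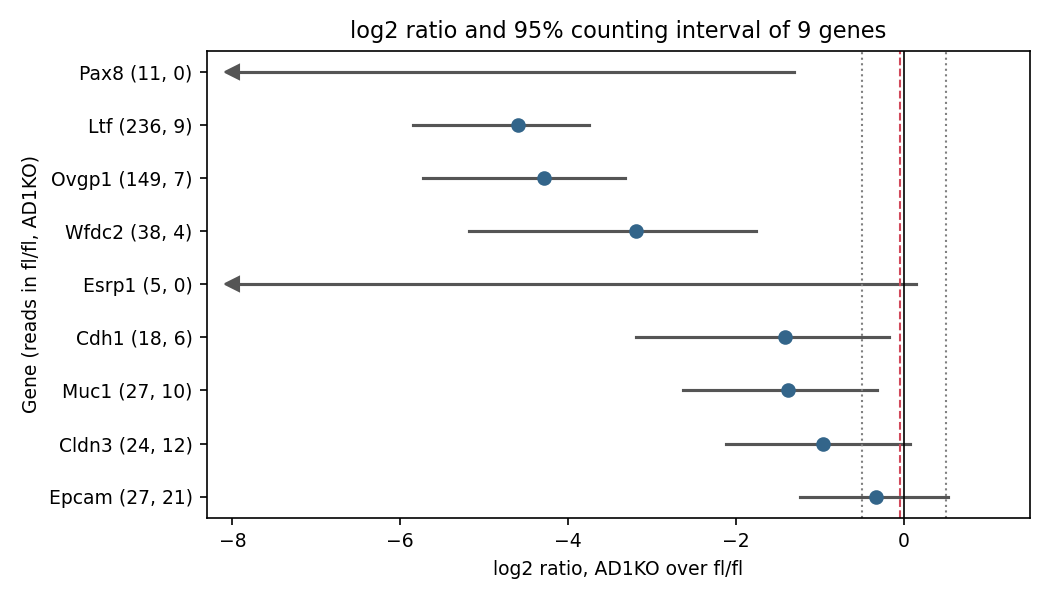
The log2 AD1KO over fl/fl ratio (points) with exact 95% counting intervals (lines) for 9 of the 10 genes, with the estimated reads in fl/fl and AD1KO beside each name; Cldn4, at or under 3 reads in both libraries, is not drawn, and Pax8 and Esrp1, listed at 0 in AD1KO, have no point and an interval without a lower end. Dotted lines mark ±0.5 and the dashed line the median of all tested genes, -0.04. The intervals of Pax8, Ltf, Ovgp1 and Wfdc2 lie wholly left of -0.5 and that of Epcam holds 0.

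Without Ltf and Ovgp1, the genes that prompted the choice, 5 of 6 tested members were lower (Epcam was not), beside 19.1% of all tested genes. The median of these 6 was -1.40, and the reads of all 8 remaining genes summed to 152 and 54. The remaining genes were also chosen with values of these libraries known, so nothing is read from this count either. Counting intervals lay below 0 for 6 of the 10 genes and held 0 for Epcam, Cldn3, Cldn4 and Esrp1. Reads over both libraries were under 50 for 8 of the 10, beside a median of 571 over all tested genes. Wbscr25 and Gm16652 overlap Cldn3 and Esrp1 on the other strand, and reads of such partners cannot be told apart here, since no source states that strand was used in counting. None of the 10 shared a stretch of 50 bases with the coding transcripts of another gene.

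**Figure D3:**
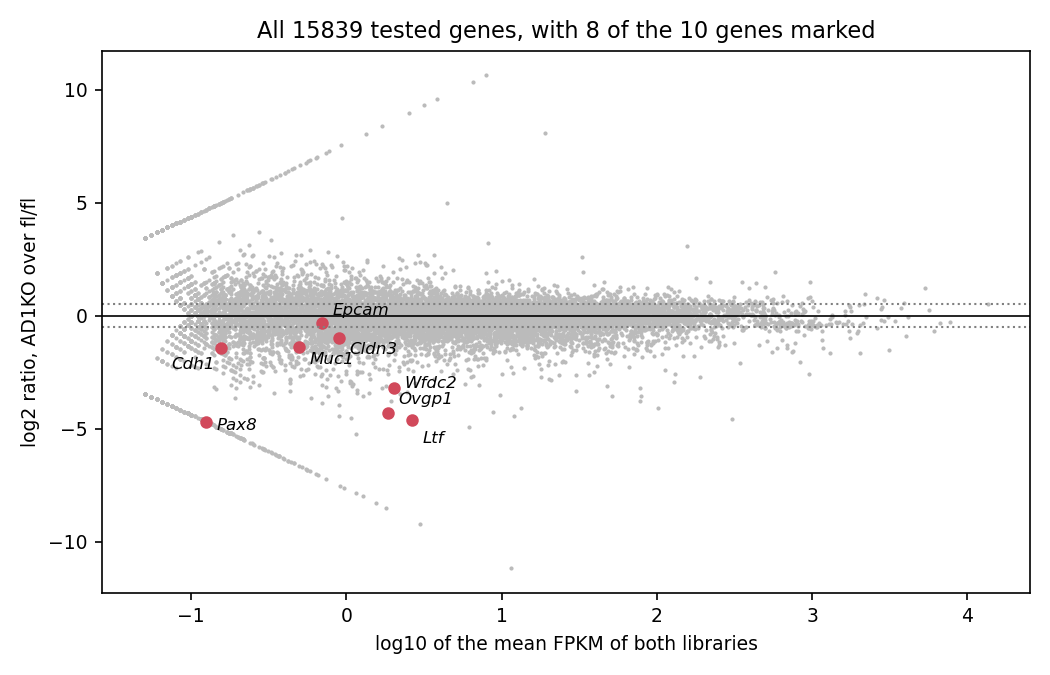
Each grey point is 1 of the 15839 tested genes, by the log10 of its mean FPKM over both libraries (horizontal) and its log2 AD1KO over fl/fl ratio (vertical), and red points are the 8 tested genes described here. The straight edges are genes listed at 0 in one library, among them Pax8, whose height is set by the added 0.01 FPKM; dotted lines mark ±0.5. Ltf, Ovgp1 and Wfdc2 stand in the lower tail of the genes of like level, while Epcam and Cldn3 lie above them.

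Other epithelial genes of the same kinds went in both directions, with the regulators more often lower than higher. Among 13 tested genes of junctions and adhesion outside the members, 5 were lower and 5 higher, with a median log2 ratio of 0.35. The tight junction scaffold Tjp3 was lower (1.28 FPKM in fl/fl and 0.41 in AD1KO), while the desmosome linker Ppl was higher (0.57 and 1.46) and the tricellular junction gene Lsr was at 3.94 and 5.66. Jup, which links cadherins to the cytoskeleton, was at 26.9 and 34.8 FPKM, inside the threshold. Of 89 tested genes that the table annotates to the bicellular tight junction, a set chosen after the data were seen and without members, 16 were lower and 21 higher, with a median of 0.08. Among 6 tested keratins, Krt5 was lower (9 reads in fl/fl, listed at 0 in AD1KO) and Krt19 higher (21.1 and 35.8 FPKM), and Krt7 was at 7.64 and 10.2. Of 13 tested epithelial regulators and surface proteases 6 were lower and 2 higher, with a median of -0.25. The whole counting interval lay at or below -0.5 for 3 of them and at or above 0.5 for 0. Over all tested genes these shares were 8.25% and 4.2%. Ehf, an epithelial ETS factor, was at 0.61 and 0.21 FPKM, Klf5 at 0.21 and 0.57, Grhl1 at 1.08 and 1.17, and the protease inhibitor Spint2 at 17.1 and 17.6. Ap1m2 and Rab25, which sort proteins to epithelial surfaces and which were singled out after their values were seen, went from 12 and 6 reads in fl/fl to listings of 0.

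Other genes of the reproductive tract were described from 4 lists. Among 7 tested regulators and products of Müllerian epithelium, 2 were lower (Msx1, from 42 to 27 reads, and Sprr2f, with 2 reads in fl/fl and a listing of 0) and 1 was higher (S100g, 8.39 and 15.1 FPKM). Their median was -0.22, or -0.13 without Sprr2f, and the secreted Lcn2 was at 21.3 and 18.3 FPKM. Of 8 tested genes of motile cilia, 0 were lower and 4 higher, with a median of 0.48 and summed levels of 11.98 and 16.6 FPKM. Their master regulator Foxj1, named outside the rule, had 3 reads in fl/fl and none in AD1KO, Cfap126 was at 6.87 and 8.90 FPKM, Tekt1 at 3.45 and 5.16, Hydin at 0.32 and 0.73, and Rsph1 at 0.54 and 0.87. Genes of uterine stroma and muscle had 0 of 7 lower and 5 higher, a median of 0.73 and summed levels of 78.6 and 144 FPKM. Most of that sum was the oxytocin receptor gene Oxtr, at 68.0 and 127 FPKM, and Hoxa10 was at 5.74 and 11.4. Pgr and Lgr5, under the minimum level and named outside the rule, had 11 and 3 reads in fl/fl and 6 and 4 in AD1KO. Of 7 tested ovary genes, 1 was lower (Cyp11a1, 1.63 and 0.73 FPKM) and 2 were higher, among them Star (1.42 and 2.41), with a median of 0.08 and summed levels of 5.12 and 5.38 FPKM. Ovary genes listed at 0 in one library, all named for that, were Lhcgr, Hsd3b1 and Bmp15, with 0 reads in fl/fl and 1 each in AD1KO, and Foxl2 and Zp1, with 4 and 1 reads in fl/fl and 0 in AD1KO. The uterine gland regulator Foxa2, also named outside the rule, had 1 read in fl/fl and none in AD1KO. The part of carried-over oviduct, uterus or ovary in the member values was not tested. Nor was it tested whether the reads of these 4 lists, Oxtr and Hoxa10 among them, come from such tissue or from cells of the fat pad.

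**Figure D4:**
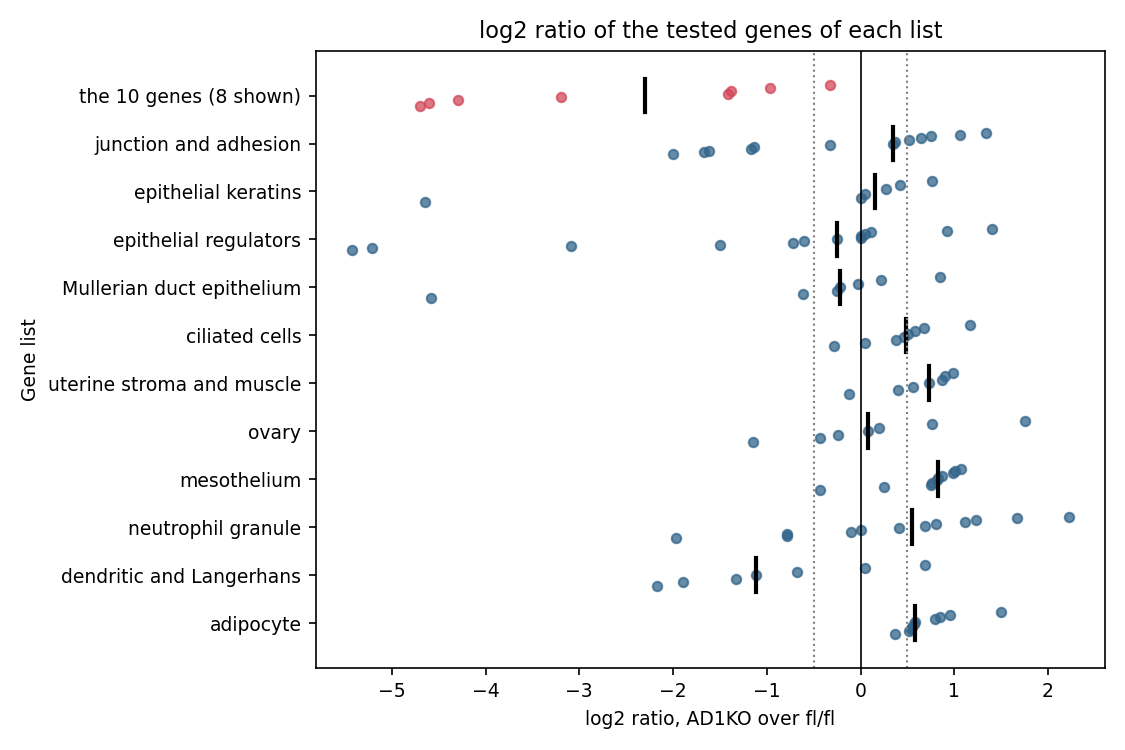
Log2 ratio of AD1KO over fl/fl for each tested gene of the 10 members (red, 8 shown) and of 11 other gene lists (blue), 1 point a gene, with the median of each list as a black bar and dotted lines at ±0.5. Genes listed at 0 in a library stand where the added 0.01 FPKM puts them. The members have a median of -2.30, the mesothelium list 0.82 and the dendritic list -1.12.

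Markers of other cells that can express members also differed between the libraries. Of 12 tested neutrophil granule genes, 3 were lower and 6 higher, with a median of 0.55 and summed levels of 45.8 FPKM in fl/fl and 73.6 in AD1KO. Ngp, Camp and Mmp8, of the specific granules to which Ltf also belongs, were singled out after their values were seen. Ngp and Camp had 1 read each in fl/fl and 5 and 1 in AD1KO, and Mmp8 had 12 and 11 reads, while Ltf had 236 and 9. Most of the neutrophil sum was S100a8, at 32.7 and 57.3 FPKM. S100a9 was at 5.40 and 3.13, Prtn3 at 1.96 and 6.25 and Ctsg at 1.01 and 0.25. Of 7 tested dendritic cell genes 5 were lower and 1 was higher (Cd209a, 2.23 and 3.59 FPKM, named after its value was seen), while Zbtb46 was at 2.41 and 2.49 FPKM, with a median of -1.12 and summed levels of 69.1 and 31.7 FPKM. Most of the dendritic sum was Itgax, at 51.4 and 20.5 FPKM. Ccr7 was at 4.28 and 2.67, Clec9a at 5.51 and 1.22 and Xcr1 at 1.88 and 0.50. Cd207, of the Langerhans cells of epithelia, was named after its value was seen and had 0 reads in fl/fl and 2 in AD1KO. Epcam, which some dendritic cells carry, differed within its counting error, and how the cells that carry it differed was not tested. Mesothelium genes were higher in 8 of 10, with a median of 0.82 and summed levels of 202 and 263 FPKM. Upk3b was at 30.5 and 64.3 FPKM, Gpm6a at 6.19 and 12.4 and Slpi, which many secretory epithelia make too, at 84.7 and 62.6. Of 10 adipocyte genes 9 were higher, with a median of 0.58 and summed levels of 17364 and 27170 FPKM, and Cfd was at 511 and 1441 FPKM and Cidec at 1487 and 2885. Of 2 tested mammary genes 1 was lower (Csn3) and 0 were higher, and the 1 tested kidney gene, Lrp2, was higher. Glycam1 was at 13.5 and 9.91 FPKM (126 and 91 reads), Csn3 had 2 reads in fl/fl and none in AD1KO, Lrp2 was at 0.28 and 0.62 FPKM (76 and 166 reads) and Aqp2 had 0 and 2 reads. Which of these cells the member reads come from was not tested.

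Known estrogen-responsive genes were lower in 5 of 9 tested and higher in 0, with a median of -0.55, or -0.43 without Areg, which had 3 reads in fl/fl and none in AD1KO, while Esr1 itself had a log2 ratio of 0.81 (interval 0.65 to 0.97). Their 2 highest genes were inside the threshold, Ctsd at 2360 and 1917 FPKM and C3 at 400 and 416, while Padi2 was at 3.70 and 1.73 and Fgf7 at 2.85 and 1.94. Whether Ltf and Ovgp1 moved with estrogen action was not tested.

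Among genes at 1 FPKM or more in fl/fl, the 5 with a log2 ratio nearest to that of Ltf were an unnamed transcript annotated as an immunoglobulin kappa chain (584 and 24.7 FPKM), Sectm1a (2.07 and 0.08), Serpina3f (22.9 and 1.04), Klra4 (1.72 and 0.07) and Ovgp1. Nearest to Ovgp1 were the interferon-inducible GTPase genes Gbp2b (16.8 and 0.86 FPKM), Gbp10 (25.2 and 1.47) and Iigp1 (192 and 11.5), with Klra4 and Serpina3f. Likeness is here the distance between log2 ratios over 2 libraries, and 1 ratio a gene says nothing of where a transcript is made.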

How the data were processed

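Total RNA of gWAT from 4 female fl/fl and 4 female AD1KO mice was pooled by group, and each pool gave 1 library of oligo(dT)-selected mRNA, sequenced on BGISEQ-500. Per the paper's methods, clean reads were aligned to mouse mm9, and the program that aligned and quantified them is not given in the sources used here. In the table the authors deposited, levels are FPKM and 0.01 stands for 0. The same table also holds the authors' log2 fold change, Poisson P-value and FDR, which were not used. The deposited RRBS libraries of the series were not analysed here.

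Values of 0.01 were set back to 0, as 1 read is worth more than that in each of the 10 genes. Log2 ratios were computed after adding 0.01 FPKM, and genes with at least 0.1 FPKM in 1 library, 15839 of 17335, were compared with the study's threshold of 0.5. Since the table gives no counts, reads were estimated from FPKM and transcript length: low values move in steps of 1 read, and the depth and length correction under which they best fell on whole reads gave 17620000 reads and 116 bases in fl/fl and 17420000 reads and 115 bases in AD1KO. Among 676 and 677 genes used for this, 76.6% and 75.3% lay within 0.1 of a whole read, where evenly spread values would give 20%. Counts so estimated carried exact 95% Clopper-Pearson intervals for ratios and Poisson intervals for levels. A listing at 0 was set against a floor of 3 expected reads. The table holds no molecular identifiers, so intervals and floors cover counting error only. No p-value was computed, as there is 1 library a group.

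The 10 genes and the gene lists were chosen with earlier results of these data known. The rule for named genes took all members, the 2 highest and the 2 most different genes of each list at 0.5 FPKM or more, Dnmt1 and Esr1, and the 5 genes nearest in ratio to Ltf and to Ovgp1. Genes named outside this rule were chosen after their values were seen: Wdr77, Krt5, Ap1m2, Rab25, Sprr2f, Foxj1, Pgr, Lgr5, Foxa2, Lhcgr, Hsd3b1, Bmp15, Foxl2, Zp1, Ngp, Camp, Mmp8, Cd209a, Zbtb46, Cd207 and Areg. The same holds, under Other observations, for Clca1, Psca, Fxyd4, Crabp2, Sprr1a, Gcg, Insl3, Igtp, Cxcl9 and Gzmk. Lists covered junctions, keratins, epithelial regulators, Müllerian epithelium, cilia, uterine stroma and muscle, ovary, mesothelium, neutrophil granules, dendritic cells, adipocytes, mammary and kidney epithelium and estrogen response. Genes of these lists with no row of that symbol were not analysed here, which holds for all 5 sex-linked genes that were looked for. Genes were matched by exact symbol. Positions are from GENCODE vM1 on mm9, and promoter sequences from RefSeq on GRCm38.p6. Alternatives were 3 scalings, other pseudocounts, minimum levels and thresholds, and ratios of estimated reads. The steps were tested on simulated data. Tables were read with pandas 2.3.3 and NumPy 2.4.6 under Python 3.11.15, intervals came from SciPy 1.17.1, and figures from Matplotlib 3.10.9.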

Additional observations from a re-analysis of the deposited data

How the results depend on the processing

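No paired analysis was possible because each group is 1 library of pooled RNA, and no library could be left out. Of the 8 tested genes, 7 were lower in AD1KO; with a pseudocount of 1 FPKM there were 3 (Ltf, Ovgp1 and Wfdc2) with a median log2 ratio of -0.44, since a larger pseudocount shrinks the ratios of low genes. With a minimum of 1 FPKM there were 4 lower of 4 tested, with a median of -3.74, and with the whole counting interval past 0.5 there were 4. None was higher under any of the 10 alternatives, which were 3 scalings, 2 pseudocounts, 2 filters, estimated reads, a threshold of 1 and the interval rule. Over these, 62 values of single members were computed and 62 lay below 0. That could hardly come out otherwise, since all 10 members were lower in AD1KO to begin with. A pseudocount, filter or threshold cannot turn a sign, and the largest scaling shift was -0.09. Of the 62 values, 58 stayed within the gene's counting interval. The 4 that did not came from the pseudocount of 1 FPKM (Ltf -2.34, Ovgp1 -1.95, Wfdc2 -1.74 and Pax8 -0.32). Upper quartile scaling gave 16.4% of all tested genes lower and 17.8% higher in place of 19.1% and 14.3%, and left 7 members lower. Depth limits Cldn4 and Esrp1, with 3 and 5 reads over both libraries, and Pax8, Cdh1, Cldn3, Muc1, Epcam and Wfdc2, each with under 50.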

Other observations

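Outside the 10 genes, single genes were picked by eye from those with the largest falls after their values were seen, so they describe no group, and their shared direction follows from how they were picked. Clca1, a secreted protein of mucus-producing goblet cells, had 29 reads in fl/fl and 0 in AD1KO, and Psca, a surface protein of urothelium and other epithelia, had 15 and 0. Fxyd4, a sodium pump regulator of kidney and colon, had 9 and 0 reads, and the retinoic acid binding gene Crabp2 had 10 and 0. The cornified envelope gene Sprr1a had 44 and 3 reads. The glucagon gene Gcg had 45 reads in fl/fl and Insl3, a hormone gene of the gonads, had 11, and both are at 0 in AD1KO. Other secreted or epithelial genes differed less or the other way, with Lcn2 at 21.3 and 18.3 FPKM, Slpi at 84.7 and 62.6, Spint2 at 17.1 and 17.6 and Krt19 at 21.1 and 35.8.

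There were 84 genes with at least 0.5 FPKM in fl/fl and a log2 ratio at or below -3, of which 50 have a symbol and 41 are listed at 0 in AD1KO. In the other direction 43 genes had at least 0.5 FPKM in AD1KO and a log2 ratio at or above 3, of which 16 have a symbol and 36 are listed at 0 in fl/fl. Among the 50 are the interferon-induced genes Igtp (146 and 10.6 FPKM in fl/fl and AD1KO) and Cxcl9 (146 and 12.4) and the granzyme gene Gzmk of cytotoxic lymphocytes (4.52 and 0.42). They too were picked by eye after their values were seen and describe no group.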
